A study of Mus musculus with 17 samples.

Results

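The genes described here are 34 glycolysis and hypoxia response genes of mouse cardiac fibroblasts (CFs), taken by symbol from the 31053 genes of a bulk RNA-seq count table. They were divided by role into 19 genes of the glycolytic pathway, 3 genes of oxygen sensing and 12 other targets of hypoxia-inducible factor (HIF). All 34 genes were found in the table, each by its Ensembl identifier, and all 34 passed the filter of at least 10 counts in at least 3 libraries that left 14030 genes for testing. Gene positions below are those of GENCODE vM21 on GRCm38 (mm10).

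The libraries were made from CFs sorted as GFP+/CD31-/CD45- cells from hearts of C57BL/6 mice of the genotype Collagen1a1-GFP+, aged 8 to 10 weeks at infarction. In all groups myocardial infarction (MI) had been induced by permanent ligation of the left anterior descending coronary artery, and the labels separate the groups by the day of collection. There were 3 libraries at 1, 2, 4 and 6 days post-infarction (dpi), 4 at 3 dpi and 1 at 5 dpi. No uninjured heart was analysed here, so every change below is between days after MI and none is against a healthy level. The sort rests on a collagen promoter that drives GFP, and the cells come from whole digested ventricles, so that fibroblasts from the infarct and from remote muscle are pooled in each library. RNA was measured by MARS-seq, in which poly-A transcripts are counted at their 3′ ends. In such bulk samples, a smaller share of cells that express a gene and less RNA of it per cell cannot be told apart.

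Glycolysis splits glucose into pyruvate in the cytosol, and lactate dehydrogenase turns pyruvate into lactate when mitochondria cannot take it up. HIF is a transcription factor whose alpha subunit, Hif1a, is marked for destruction by the prolyl hydroxylases Egln1 and Egln3 as long as oxygen is present. In low oxygen the subunit is stable, pairs with Arnt at short DNA motifs and raises transcription of glucose transporters, most glycolytic enzymes, the angiogenic factor Vegfa and genes of cell stress. The infarcted ventricle is a classical setting of both oxygen shortage and fibroblast activation.

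Total counts ranged from 8021815 to 22029938 per library. Fibroblast markers were abundant in each library, with *Col1a1* at 12665 to 208392 counts and *Pdgfra* at 1227 to 6755, whereas *Cdh5* of endothelial cells was at 0 in 10 libraries and *Ptprc* and *Adgre1* of leukocytes in 12 each. *Pecam1* (CD31) of endothelial cells was present in every library, at 7 to 241 counts. The summed level of 7 fibroblast markers was 10342 to 16177 CPM (counts scaled to a common library size) at 1 dpi and 17228 to 31897 CPM on the later days, with 2 of the 7 called higher and 2 lower at 6 than at 1 dpi. The summed level of 5 cardiomyocyte markers was 5.05 to 11.8 CPM up to 3 dpi, 16.5 to 31.3 CPM at 4 dpi, 6.76 CPM at 5 dpi and 37.5 to 76.1 CPM at 6 dpi, and 3 of the 4 markers tested were called higher at 6 than at 1 dpi. The leukocyte sum (8 genes) reached 165 CPM at 3 dpi and was at most 52.6 CPM elsewhere. The erythroid sum (5 genes) was 309 to 2392 CPM at 4 dpi and at most 500 CPM elsewhere. The endothelial sum (5 genes) was at most 26.6 CPM. The mural sum (4 genes) was 19.4 to 48.6 CPM at 1 dpi, 65.2 to 78.1 CPM at 6 dpi and at most 133 CPM, with 1 of the 4 called higher at 6 than at 1 dpi. The sum of 12 proliferation genes was highest at 3 dpi, at 610 to 809 CPM. It was 122 to 268 CPM at 1 dpi and 105 to 228 CPM at 6 dpi. Of these 12 genes 7 were called higher and 1 lower at 6 than at 1 dpi. The sum of 10 dissociation response genes was 5034 to 9097 CPM, with 2 of the 10 called lower at 6 than at 1 dpi. *Xist* exceeded Y-linked transcripts in all libraries of 4 and 6 dpi and in 1 dpi replicate 1. The reverse held for 1 dpi replicates 2 and 3 and all libraries of 2, 3 and 5 dpi. The sex of the mice and the step from 3 to 4 dpi therefore cannot be told apart, and the comparison of 6 with 1 dpi is partly confounded with sex. Both kinds of transcript were present in 1 dpi replicate 1 (*Xist* 208.18 CPM, Y-linked 10.47 CPM) and replicate 2 (20.93 and 66.05 CPM). The 3 dpi libraries were named in another form than those of all other days, and the labels do not say whether they were processed apart. Any such difference in handling and the level at 3 dpi cannot be told apart. The part of the differences named in this paragraph in the results below was not tested.

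Some libraries stood apart for these genes. The 2 dpi replicate 1 had the highest level of its day for 27 of 34 members, or 79.4%, against 34.4% of all genes tested. The 2 dpi replicate 2 had the lowest level of its day for 20 members (58.8% against 31.0% of all genes). The 4 dpi replicate 1 had the highest for 19 (55.9% against 33.1%). The 4 dpi replicate 3 had the lowest for 18 (52.9% against 41.3%) and the 6 dpi replicate 3 the lowest for 18 (52.9% against 39.1%). The 3 dpi replicate 3 had the lowest level of its day for 17 members, or 50%, against 23.1% of all genes.

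The promoters of several members show the short motif through which HIF binds DNA. The windows of 250 bases before each RefSeq transcription start (GRCm38.p6) were searched for ACGTG and GCGTG on both strands, where ACGTG also lies within the palindrome CACGTG that other factors bind. RefSeq windows were found for 32 of the 34 members, in all 44 windows. At least 1 motif was present in 34 of 44 windows, or 77.3%, against 38.6% of all 32851 promoter windows and 63.8% of the windows with at least 60% GC. The median GC content was 62.8% in the members' windows and 52.4% in all windows. A match is a description of the sequence and not a measured binding site. The following sequences are the 150 bases before the start for 4 glycolytic genes that were called lower at 6 than at 1 dpi, with the motif in capitals, and for *Vegfa*, whose first window holds no such motif.
*Slc16a1*, chr3:104638514-104638663, plus strand: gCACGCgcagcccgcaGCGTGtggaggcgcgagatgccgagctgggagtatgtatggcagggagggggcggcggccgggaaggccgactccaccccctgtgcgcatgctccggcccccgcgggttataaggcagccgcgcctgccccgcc
*Hk2*, chr6:82774455-82774604, minus strand: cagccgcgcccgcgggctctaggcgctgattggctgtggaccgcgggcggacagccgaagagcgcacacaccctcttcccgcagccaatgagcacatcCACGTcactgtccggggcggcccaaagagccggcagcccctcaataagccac
*Pgk1*, chrX:106186950-106187099, plus strand: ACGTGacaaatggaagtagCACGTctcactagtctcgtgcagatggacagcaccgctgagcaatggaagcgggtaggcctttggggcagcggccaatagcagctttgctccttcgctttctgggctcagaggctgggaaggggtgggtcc
*Ldha*, chr7:46845654-46845803, plus strand: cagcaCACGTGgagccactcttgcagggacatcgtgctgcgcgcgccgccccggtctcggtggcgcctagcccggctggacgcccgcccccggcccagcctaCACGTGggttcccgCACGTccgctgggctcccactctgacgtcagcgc
*Vegfa*, chr17:46032378-46032527, minus strand: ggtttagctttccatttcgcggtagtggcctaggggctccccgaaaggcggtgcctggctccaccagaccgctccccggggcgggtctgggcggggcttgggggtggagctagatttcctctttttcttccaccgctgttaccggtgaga

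All 5 stretches lie outside the exons annotated in GENCODE vM21. The *Ldha* stretch contains the palindrome CACGTG, whose strands each hold ACGTG, at -145 and again at -48, and CACGT at -34. The *Pgk1* stretch opens with ACGTG at -150 and has its reverse form, CACGT, at -131. The second RefSeq window of *Vegfa* holds 2 motifs, at -218 and -211 relative to its start.

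Across the whole time course 7 of the 34 members changed, at a background of 15.0% of all genes tested. They were *Slc2a1*, *Gapdh*, *Pgk1* and *Pgam1* of the glycolytic pathway (4 of 19) and *Vegfa*, *Ddit4* and *Ero1l* of the other HIF targets (3 of 12), with none of the 3 oxygen sensing genes. The test was edgeR's quasi-likelihood F-test, with p adjusted by Benjamini-Hochberg across the genes tested, and a gene was called where the adjusted p was under 0.05. At an unadjusted p under 0.05 there were 18 members. The share of all genes at that cut is not given here, and the 15.0% does not belong to it. The adjusted p was 0.00314 for *Slc2a1*, 0.00703 for *Ero1l*, 0.0102 for *Ddit4*, 0.0177 for *Vegfa*, 0.0305 for *Pgam1*, 0.0311 for *Gapdh* and 0.0395 for *Pgk1*. The count was 13 with DESeq2, 13 without 3 dpi replicate 2, 11 without 6 dpi replicate 3, 4 without 6 dpi replicate 2 and 17 with 3 dpi replicate 2 and 4 dpi replicate 3 both left out. The share of all genes called in these fits was 26.8%, 24.8%, 20.5%, 9.55% and 29.7%, in the same order.

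Of the comparisons between days made here, that of the last with the first day called the most members when all libraries were used. At 6 dpi 9 members were lower than at 1 dpi, against 5.21% of all genes called lower, and no member was higher, against 6.91% of all genes called higher. Of the glycolytic genes 6 were lower, namely all 3 transporters (*Slc2a1*, *Slc16a1*, *Slc16a3*) and the enzymes *Hk2*, *Pgk1* and *Ldha*. Of the other HIF targets 3 were lower, namely *Vegfa*, *Ero1l* and *Bhlhe40*. The log2 fold change was negative for 28 of 34 members, with a median of -0.57, whereas it was negative for 48.5% of all genes, with a median of 0.03. In 18 of the 34 members every 6 dpi library was under every 1 dpi library, which held for 15.3% of all genes, and in 0 of the members was every 6 dpi library above every 1 dpi library, which held for 17.1% of all genes. For the members called higher the count was also 0 with DESeq2 and 0 at an unadjusted p under 0.05 in edgeR. The number of members called lower was 11 with DESeq2. It was 5 without 1 dpi replicate 1, 5 without 1 dpi replicate 2, 3 without 6 dpi replicate 1 (*Slc2a1*, *Ldha* and *Ero1l*) and 2 without 6 dpi replicate 2 (*Slc2a1* and *Ero1l*), and it was 12 with 3 dpi replicate 2 and 4 dpi replicate 3 left out. Of all genes 731 were called lower with all libraries in edgeR and 974 with DESeq2. The number was 330, 435, 285, 272 and 1290 in the fits with libraries left out, in the order given. Without 6 dpi replicate 2 the comparison of days 3 to 5 with days 1 and 2 called more members, 5, and without 6 dpi replicate 1 both comparisons called 3.

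**Figure D1:**
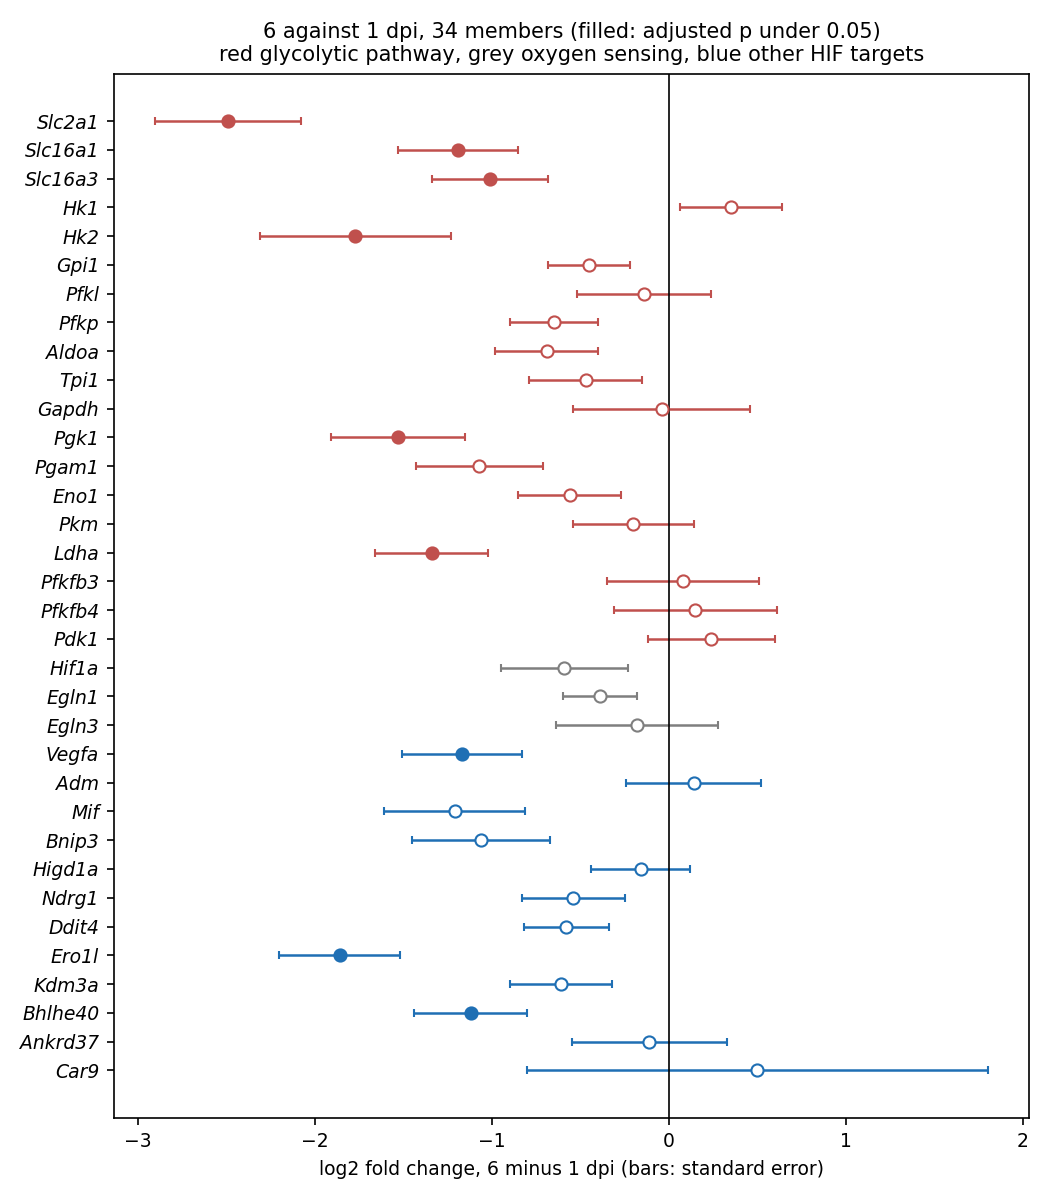
Log2 fold change of each of the 34 members at 6 dpi against 1 dpi (3 libraries each), with bars for the standard error and filled symbols for an adjusted p under 0.05. The 9 filled symbols all lie left of 0, from -2.49 for *Slc2a1* to -1.01 for *Slc16a3*, and the glycolytic regulators *Pfkfb3*, *Pfkfb4* and *Pdk1* lie close to 0.

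The glucose transporter *Slc2a1* (ENSMUSG00000028645, chr4:119108711-119137983; GLUT1), through which most cells take up basal glucose, had the largest log2 fold change between 1 and 6 dpi among the members. Its normalised read count was 69.1, 58.6 and 60.8 CPM at 1 dpi, 62.0, 21.7 and 34.2 CPM at 2 dpi, 57.1, 40.5, 34.4 and 54.4 CPM at 3 dpi, 29.9, 25.6 and 8.01 CPM at 4 dpi, 26.8 CPM at 5 dpi and 9.75, 10.1 and 13.8 CPM at 6 dpi. The 3 libraries of 1 dpi were close together and far above those of 6 dpi, and the 3 and 4 dpi libraries did not overlap either. The log2 fold change from 1 to 6 dpi was -2.49 (SE 0.41, adjusted p = 0.000664, edgeR) and kept its call without any 1 of the 16 libraries that could be left out, between -2.66 and -2.39. The step from 3 to 4 dpi was -1.13 (SE 0.37, adjusted p = 0.112, edgeR) and was not called, although DESeq2 called it. The 69.1 CPM at 1 dpi belong to the library of that day in which *Xist* exceeded Y-linked transcripts, and which held both kinds. The part of sex in the difference between 1 and 6 dpi was not tested.

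The monocarboxylate transporters carry lactate and pyruvate across the plasma membrane. *Slc16a1* (MCT1, ENSMUSG00000032902, chr3:104638668-104658462) was at 27.3, 22.1 and 16.2 CPM at 1 dpi and at 6.07, 11.4 and 11.2 CPM at 6 dpi, a log2 fold change of -1.19 (SE 0.34, adjusted p = 0.0294, edgeR). At 2 dpi it was at 14.8, 11.1 and 10.8 CPM, under all 1 dpi libraries, but that step of -0.84 was not called (adjusted p = 0.56, edgeR). *Slc16a3* (MCT4, ENSMUSG00000025161, chr11:120948480-120960868), the exporter typical of glycolytic cells, was at 42.2, 58.6 and 41.6 CPM at 1 dpi and at 26.3, 25.0 and 19.3 CPM at 6 dpi, a log2 fold change of -1.01 (SE 0.33, adjusted p = 0.048, edgeR). Both genes separated the days without overlap, but their calls were less secure than that of *Slc2a1*. The call of *Slc16a1* was lost without 1 dpi replicate 1 or 2 or without 6 dpi replicate 1 or 2, at log2 fold changes of -1.34 to -0.95 (adjusted p of 0.055 to 0.15), and that of *Slc16a3* was lost in 11 of 16 fits that left out 1 library, at -1.11 to -0.84 (adjusted p of 0.054 to 0.16). The *Slc16a3* call was also lost with DESeq2's size factors (-0.98, adjusted p = 0.058, edgeR) and with upper-quartile normalisation (-0.97, adjusted p = 0.054, edgeR).

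Among the enzymes, the lower levels at 6 dpi lay at the first step of the pathway, in its middle and at its end. *Hk2* (ENSMUSG00000000628, chr6:82725025-82774454), the inducible hexokinase that traps glucose in the cell, was at 33.4, 23.1 and 66.3 CPM at 1 dpi, 25.1, 23.5 and 18.8 CPM at 2 dpi, 40.2, 23.0, 20.7 and 37.1 CPM at 3 dpi, 60.3, 52.6 and 7.80 CPM at 4 dpi, 25.0 CPM at 5 dpi and 8.91, 7.5 and 19.5 CPM at 6 dpi. The spread within 1 dpi and within 4 dpi was wide, and at 4 dpi replicate 3 alone was as low as the 6 dpi libraries. From 1 to 6 dpi its log2 fold change was -1.77 (SE 0.54, adjusted p = 0.038, edgeR). The call was lost without 1 dpi replicate 1 or 3 or 6 dpi replicate 1 or 2, at -1.90 to -1.24 (adjusted p of 0.069 to 0.18). Its relative *Hk1*, the constitutive hexokinase, had the opposite sign without a call, at 29.2, 41.1 and 30.7 CPM at 1 dpi and 56.6, 43.3 and 29.5 CPM at 6 dpi (log2 fold change 0.35, SE 0.29, adjusted p = 0.452, edgeR). The difference between the responses of these genes was not tested.

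*Pgk1* (ENSMUSG00000062070, chrX:106187100-106203699), phosphoglycerate kinase, which makes the first ATP of the pathway, stayed level until 3 dpi and was lowest at 6 dpi. It was at 304, 210 and 239 CPM at 1 dpi, 344, 201 and 177 CPM at 2 dpi, 366, 151, 260 and 325 CPM at 3 dpi, 240, 220 and 107 CPM at 4 dpi, 241 CPM at 5 dpi and 78.7, 58.7 and 124 CPM at 6 dpi. The 6 dpi libraries were under all others except 4 dpi replicate 3, which was under 6 dpi replicate 3. Its log2 fold change from 1 to 6 dpi was -1.53 (SE 0.38, adjusted p = 0.0124, edgeR), and the call was lost without 1 dpi replicate 1 or 6 dpi replicate 1 or 2, at -1.46 to -1.31 (adjusted p of 0.057 to 0.074). *Pgk1* is X-linked. The call over the whole course was lost in 10 of 16 fits that left out 1 library, at an adjusted p of 0.052 to 0.19.

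*Ldha* (ENSMUSG00000063229, chr7:46841475-46855627), the lactate dehydrogenase subunit typical of glycolytic tissue, was at 674, 743 and 601 CPM at 1 dpi, 802, 554 and 573 CPM at 2 dpi, 724, 279, 417 and 487 CPM at 3 dpi, 548, 506 and 325 CPM at 4 dpi, 376 CPM at 5 dpi and 260, 199 and 337 CPM at 6 dpi. The level was high on the first 2 days and spread widely at 3 dpi, where replicate 2 was as low as the 6 dpi libraries. Between 1 and 6 dpi the log2 fold change was -1.34 (SE 0.32, adjusted p = 0.0111, edgeR), and the call was lost only without 6 dpi replicate 2 (-1.17, adjusted p = 0.067).

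*Pgam1*, phosphoglycerate mutase, changed over the course but was not called between days by edgeR with all libraries and the filter above. It was at 208, 312 and 148 CPM at 1 dpi, 398, 159 and 213 CPM at 2 dpi, 324, 250, 400 and 456 CPM at 3 dpi, 186, 205 and 231 CPM at 4 dpi, 204 CPM at 5 dpi and 123, 60.9 and 135 CPM at 6 dpi. The 3 dpi libraries were all above those of 4 dpi, which were all above those of 6 dpi. Log2 fold changes were -0.79 from 3 to 4 dpi (adjusted p = 0.227), -0.96 from 4 to 6 dpi (adjusted p = 0.16) and -1.07 from 1 to 6 dpi (adjusted p = 0.0602), all in edgeR. With every gene of at least 1 count tested, edgeR called it from 1 to 6 and from 4 to 6 dpi. The difference from 1 to 6 dpi was also called by DESeq2, and by edgeR without 1 dpi replicate 3, 2 dpi replicate 1, 3 dpi replicate 2 or 6 dpi replicate 3. Its call over the course was lost without 3 dpi replicate 1, 3 or 4 or 6 dpi replicate 1 or 2 (adjusted p of 0.054 to 0.11).

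*Gapdh*, the enzyme often used as a constant reference in expression assays, was not constant in these libraries. It was at 391, 625 and 520 CPM at 1 dpi, 652, 362 and 396 CPM at 2 dpi, 891, 3740, 669 and 676 CPM at 3 dpi, 429, 497 and 347 CPM at 4 dpi, 820 CPM at 5 dpi and 679, 438 and 379 CPM at 6 dpi. The 4 libraries of 3 dpi were above all those of 2 and of 4 dpi, and replicate 2 was far above the other 3. Its log2 fold change was 1.67 from 2 to 3 dpi (SE 0.49, adjusted p = 0.0705, edgeR) and -1.82 from 3 to 4 dpi (SE 0.50, adjusted p = 0.0552, edgeR), and both were called with DESeq2. The step from 2 to 3 dpi was also called without 3 dpi replicate 3 (1.89, adjusted p = 0.039, edgeR), and that from 3 to 4 dpi without 3 dpi replicate 3 or 4 (-2.05 in both, adjusted p of 0.033 to 0.038, edgeR). Without 3 dpi replicate 2 these values were 0.66 (adjusted p = 0.17) and -0.81 (adjusted p = 0.092), and the call over the course was lost (adjusted p = 0.11). That call was also lost without any of 7 other libraries, which were 1 dpi replicates 1 and 3, 2 dpi replicates 2 and 3, 4 dpi replicates 1 and 2 and 6 dpi replicate 2 (adjusted p of 0.05 to 0.059).

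The remaining glycolytic members were not called between 1 and 6 dpi or over the course by edgeR with all libraries and the filter above. DESeq2 called *Gpi1* and *Aldoa* over the course, as did edgeR without 3 dpi replicate 2. In edgeR further calls were *Hk1* over the course without that library, *Gpi1* over the course without 6 dpi replicate 3 and *Pfkp* between 1 and 6 dpi without 1 dpi replicate 1. The enzymes *Gpi1*, *Aldoa* and *Eno1* had all 6 dpi libraries under all 1 dpi libraries, at log2 fold changes of -0.45, -0.69 and -0.56 (adjusted p = 0.216, 0.125 and 0.221, edgeR). *Pfkl* and *Pfkp*, subunits of phosphofructokinase, were at -0.14 and -0.65, *Tpi1* at -0.47 and *Pkm*, pyruvate kinase, at -0.20. *Pfkfb3* and *Pfkfb4*, which make and break down an activator of phosphofructokinase, were at 0.08 and 0.15 (adjusted p = 0.927 and 0.864, edgeR). *Pdk1*, a kinase that inhibits pyruvate dehydrogenase, was at 0.24 (adjusted p = 0.713, edgeR). These 3 regulators were among the members with few reads, at 2.19 to 6.59 CPM for *Pfkfb3*, 4.23 to 14.4 CPM for *Pfkfb4* and 4.06 to 14.5 CPM for *Pdk1*. Among the 13 enzymes 12 had a negative log2 fold change and among the 3 regulators 0, with medians of -0.56 and 0.15.

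**Figure D2:**
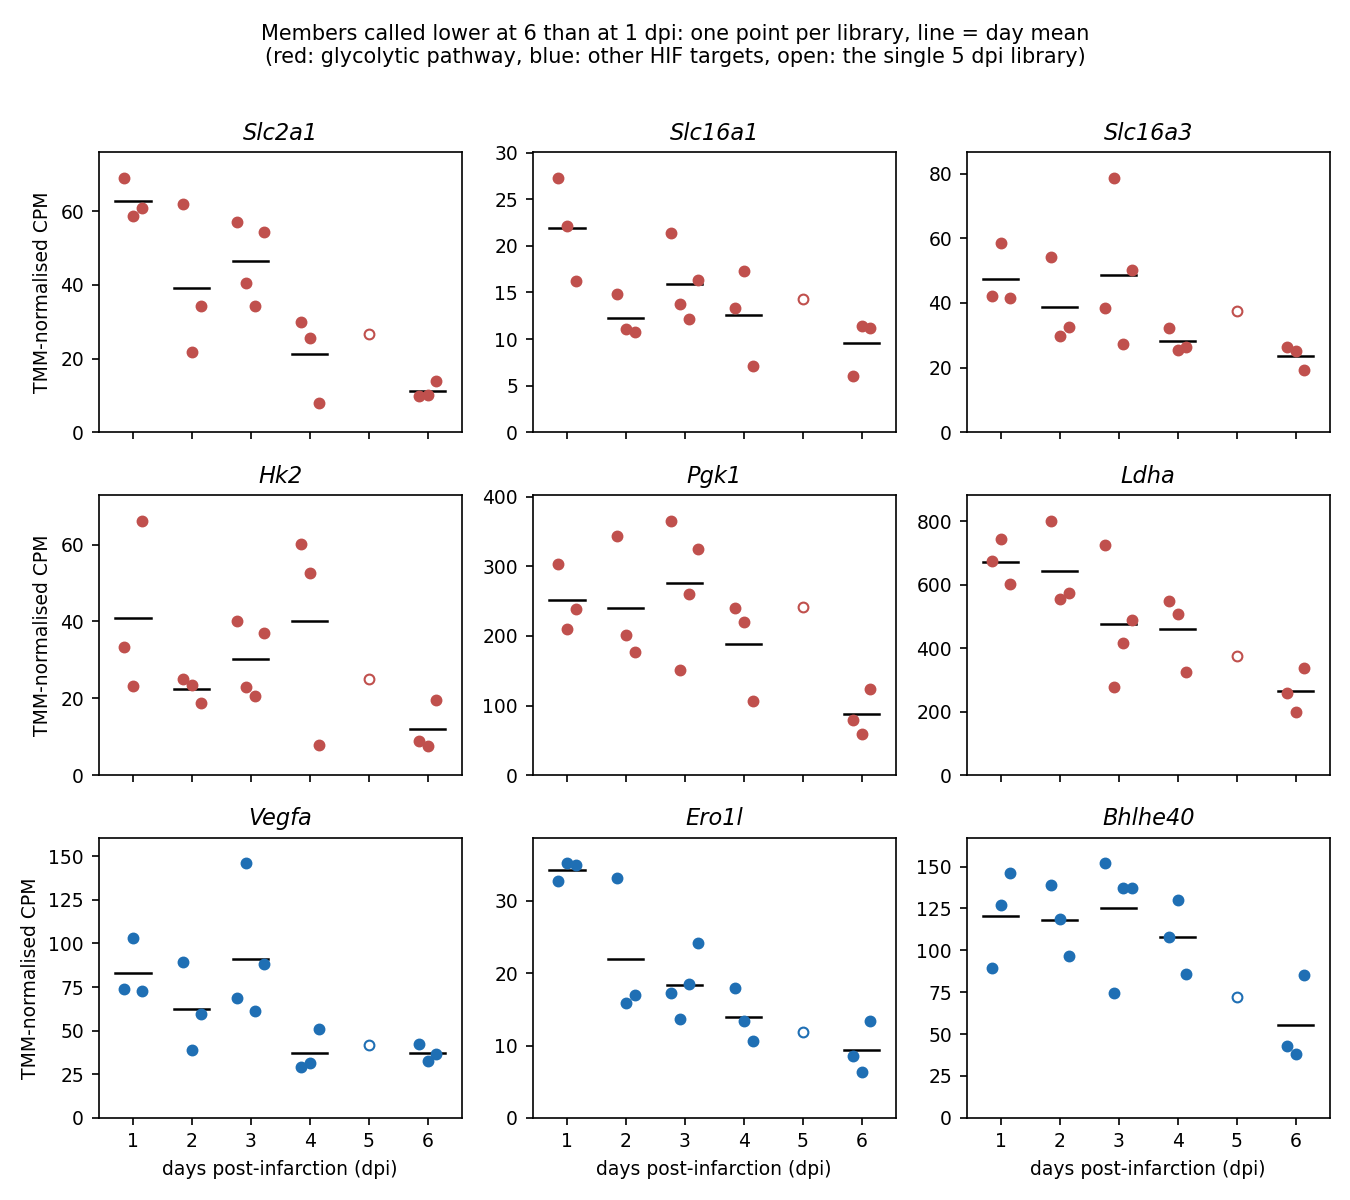
Normalised read count in CPM (linear axes from 0) of the 9 members called lower at 6 than at 1 dpi, by day, with 1 point per library, a line for the mean of each day and an open point for the single 5 dpi library. *Slc2a1* and *Ero1l* were already lower in most libraries after 1 dpi, whereas *Pgk1* and *Bhlhe40* stayed at their early level in most libraries until 4 dpi.

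Of the other HIF targets, *Ero1l* (ENSMUSG00000021831, chr14:45283087-45318771), an oxidase that forms disulfide bonds in the endoplasmic reticulum, had the largest log2 fold change between 1 and 6 dpi. It was at 32.8, 35.2 and 34.9 CPM at 1 dpi, 33.1, 15.9 and 17 CPM at 2 dpi, 17.2, 13.7, 18.5 and 24.2 CPM at 3 dpi, 17.9, 13.4 and 10.6 CPM at 4 dpi, 11.9 CPM at 5 dpi and 8.59, 6.31 and 13.4 CPM at 6 dpi. The 1 dpi libraries differed little from each other, 2 dpi replicate 1 shared their level, and the 13 other libraries were all under them. Between 1 and 6 dpi its log2 fold change was -1.86 (SE 0.34, adjusted p = 0.00152, edgeR), and the call was kept without any 1 of 16 libraries, at -2.20 to -1.64.

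*Vegfa* (ENSMUSG00000023951, chr17:46016993-46032369), the growth factor of endothelial cells, was lower at 4 than at 3 dpi and at 6 than at 1 dpi. It was at 73.9, 103 and 72.5 CPM at 1 dpi, 89.1, 39.0 and 59.3 CPM at 2 dpi, 68.7, 146, 61.1 and 88.2 CPM at 3 dpi, 29.0, 31.7 and 50.7 CPM at 4 dpi, 41.8 CPM at 5 dpi and 42.2, 32.5 and 36.4 CPM at 6 dpi. No library of 4, 5 or 6 dpi reached the lowest of 1 or 3 dpi, whereas 2 dpi replicate 2 lay within their range. The log2 fold change from 3 to 4 dpi was -1.30 (SE 0.33, adjusted p = 0.0385, edgeR), the only member called in that comparison, where 1.08% of all genes were called lower and 1.63% higher. From 1 to 6 dpi it was -1.17 (SE 0.34, adjusted p = 0.0304, edgeR). The call from 3 to 4 dpi was lost without 1 dpi replicate 3, 3 dpi replicate 2 or 4, or 4 dpi replicate 1 or 2, at -1.30 to -0.97 (adjusted p of 0.05 to 0.17), and that from 1 to 6 dpi without 1 dpi replicate 1 or 2 or 6 dpi replicate 1 or 2, at -1.27 to -0.99 (adjusted p of 0.06 to 0.12). At 3 dpi all libraries had more Y-linked than *Xist* counts and at 4 dpi all had more *Xist*.

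*Bhlhe40* (ENSMUSG00000030103, chr6:108660629-108666925), a transcriptional repressor of the circadian and hypoxic responses, was at 89.3, 127 and 146 CPM at 1 dpi, 139, 119 and 96.4 CPM at 2 dpi, 152, 74.5, 137 and 137 CPM at 3 dpi, 108, 130 and 86.1 CPM at 4 dpi, 72.4 CPM at 5 dpi and 43.1, 37.9 and 85.3 CPM at 6 dpi. At 6 dpi replicates 1 and 2 were well under all other libraries, and replicate 3 lay close to the lowest of 1 dpi. The log2 fold change from 1 to 6 dpi was -1.12 (SE 0.32, adjusted p = 0.0289, edgeR), and the call was lost without 1 dpi replicate 2 or 3 or 6 dpi replicate 1 or 2, at -1.09 to -0.91 (adjusted p of 0.078 to 0.14).

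*Ddit4* (REDD1), a stress-induced inhibitor of mTORC1, changed over the course with a later maximum. It was at 32.2, 39.0 and 36.5 CPM at 1 dpi, 66.1, 61.9 and 42.8 CPM at 2 dpi, 48.2, 50.3, 52.0 and 55.3 CPM at 3 dpi, 39.6, 31.2 and 36.2 CPM at 4 dpi, 41.8 CPM at 5 dpi and 23.2, 30.9 and 18.1 CPM at 6 dpi. The libraries of 2 and 3 dpi were all above those of 1, 4, 5 and 6 dpi. The steps were 0.66 from 1 to 2 dpi (adjusted p = 0.454), -0.53 from 3 to 4 dpi (adjusted p = 0.214) and -0.57 from 4 to 6 dpi (adjusted p = 0.2), none called by edgeR. The adjusted p over the course stayed between 0.0047 and 0.043 without any 1 of 16 libraries.

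The remaining HIF targets were not called over the course or between 1 and 6 dpi by edgeR with all libraries and the filter above. With every gene of at least 1 count tested, edgeR called *Mif* and *Bnip3* in both and *Adm* over the course. *Mif*, a cytokine, was at 1553, 950 and 882 CPM at 1 dpi and 497, 560 and 409 CPM at 6 dpi (log2 fold change -1.21, SE 0.40, adjusted p = 0.0555, edgeR), and *Bnip3*, a receptor for the removal of mitochondria, at 40.5, 34.1 and 27.6 CPM and 21.1, 9.03 and 18.9 CPM (-1.06, SE 0.39, adjusted p = 0.0815, edgeR). In both, all 6 dpi libraries were under all 1 dpi libraries, and DESeq2 called *Mif* from 1 to 6 dpi and *Bnip3* over the course. In edgeR *Mif* was called from 1 to 6 dpi without 3 dpi replicate 2 or 3 or 4 dpi replicate 3. *Bnip3* was called from 1 to 6 dpi without 2 dpi replicate 1 and over the course without 2 dpi replicate 2 or 3 or 3 dpi replicate 2. *Adm* was called over the course without 4 or 6 dpi replicate 3. The histone demethylase gene *Kdm3a* was at -0.61, *Ndrg1* at -0.54 and *Higd1a*, whose protein is mitochondrial, at -0.16. *Ankrd37* was at -0.11 and *Adm*, which encodes the vasodilator adrenomedullin, at 0.14. *Car9*, the carbonic anhydrase much used as a marker of hypoxia, had few reads in every library, with 0 to 30 counts. It had 0 counts in 1 dpi replicates 1 and 3 and 4 dpi replicate 3, where 3 counts would correspond to 0.374, 0.152 and 0.36 CPM, which covers counting error only, and its mean was 1.54 CPM at 3 dpi. *Car9* was not called over the course (adjusted p = 0.388, edgeR) or in any comparison of days with all libraries, and was called higher at 3 to 5 than at 1 to 2 dpi without 1 dpi replicate 2.

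The oxygen sensing genes were not called in any comparison (0 of 3) by edgeR with all libraries and the filter above. With every gene of at least 1 count tested, edgeR called *Hif1a* from 4 to 6 dpi and over the course. Without 4 or 6 dpi replicate 3 edgeR called *Hif1a* from 4 to 6 dpi, and without 3 dpi replicate 2 it called *Egln1* over the course. DESeq2 called *Egln1* over the whole course and from 3 to 4 dpi and *Hif1a* from 4 to 6 dpi. *Hif1a* was at 43.0, 27 and 22.9 CPM at 1 dpi, 24.6, 48.3, 49.4 and 38.8 CPM at 3 dpi, 65.5, 48.4 and 24.1 CPM at 4 dpi and 14.5, 19.4 and 27.8 CPM at 6 dpi, and its groups overlapped between each pair of days tested. The log2 fold change from 4 to 6 dpi was -1.16 (SE 0.36, adjusted p = 0.103, edgeR). *Egln1*, the main HIF prolyl hydroxylase, was at 77.6, 79.9, 77.1 and 89.2 CPM at 3 dpi, above every other library, and at 49.3, 47.2 and 41.0 CPM at 6 dpi, under all others except 2 dpi replicate 3. Its step from 3 to 4 dpi was -0.60 (SE 0.20, adjusted p = 0.11, edgeR). *Egln3*, itself a HIF target, was at 8.78, 8.78, 6.54 and 6.38 CPM at 3 dpi, 5.00, 3.29 and 1.28 CPM at 4 dpi, 3.12 CPM at 5 dpi and 5.36, 9.72 and 5.30 CPM at 6 dpi, with log2 fold changes of -1.23 from 3 to 4 dpi and 1.06 from 4 to 6 dpi (adjusted p = 0.15 and 0.22, edgeR). The levels of these genes describe transcripts and not the HIF protein, whose amount is set after translation.

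**Figure D3:**
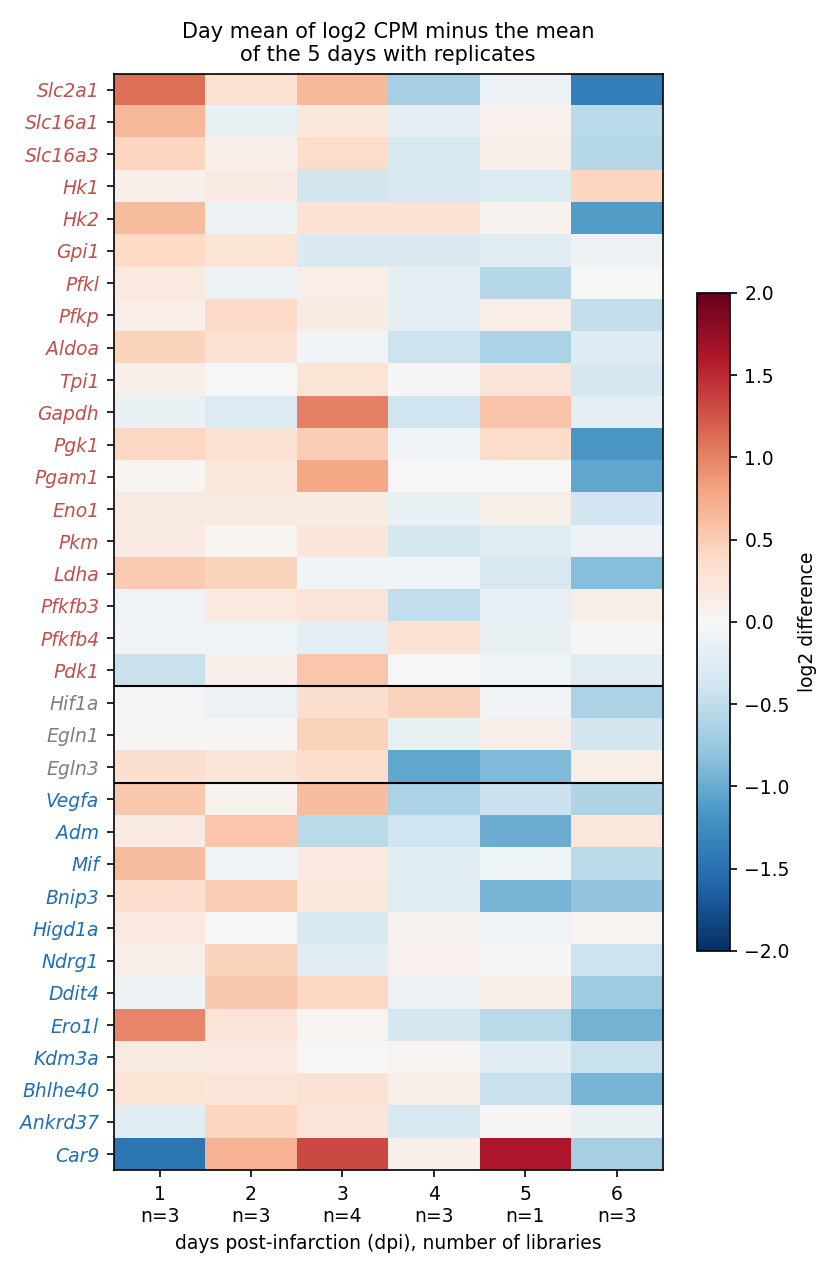
Mean log2 CPM of each member on each day, minus the mean over the 5 days with replicates, with the 19 glycolytic genes (red names) above the 3 oxygen sensing genes (grey) and the 12 other HIF targets (blue). Most rows turn blue at 6 dpi, and *Car9*, which rests on at most 30 counts per library, has the widest range.

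The timing of both groups was described by the mean log2 CPM over their members, without a test. The 19 glycolytic members averaged 6.39 ± 0.09 (SD, n = 3) at 1 dpi, 6.25 ± 0.36 (n = 3) at 2 dpi, 6.37 ± 0.23 (n = 4) at 3 dpi, 5.95 ± 0.23 (n = 3) at 4 dpi, 6.07 in the single 5 dpi library and 5.70 ± 0.11 (n = 3) at 6 dpi. The 15 other HIF members, oxygen sensing genes included, averaged 4.93 ± 0.13 (n = 3), 5.07 ± 0.28 (n = 3), 5.03 ± 0.08 (n = 4), 4.62 ± 0.26 (n = 3), 4.61 and 4.35 ± 0.03 (n = 3) on the same days. In both groups the mean was level from 1 to 3 dpi within the spread between libraries, and all libraries of 6 dpi were under all those of 1, 2 and 3 dpi. Against 1 dpi the glycolytic mean differed by -0.13, -0.01, -0.44 and -0.69 at 2, 3, 4 and 6 dpi, and the mean of the other HIF members by 0.14, 0.10, -0.30 and -0.58. The latter mean includes *Car9*, which had few reads and a mean log2 CPM of -2.06, 0.08 and 0.71 at 1, 2 and 3 dpi. Its rise enters the positive values at 2 and 3 dpi, and the mean without it is not given here. A difference in timing between the groups was not tested.

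**Figure D4:**
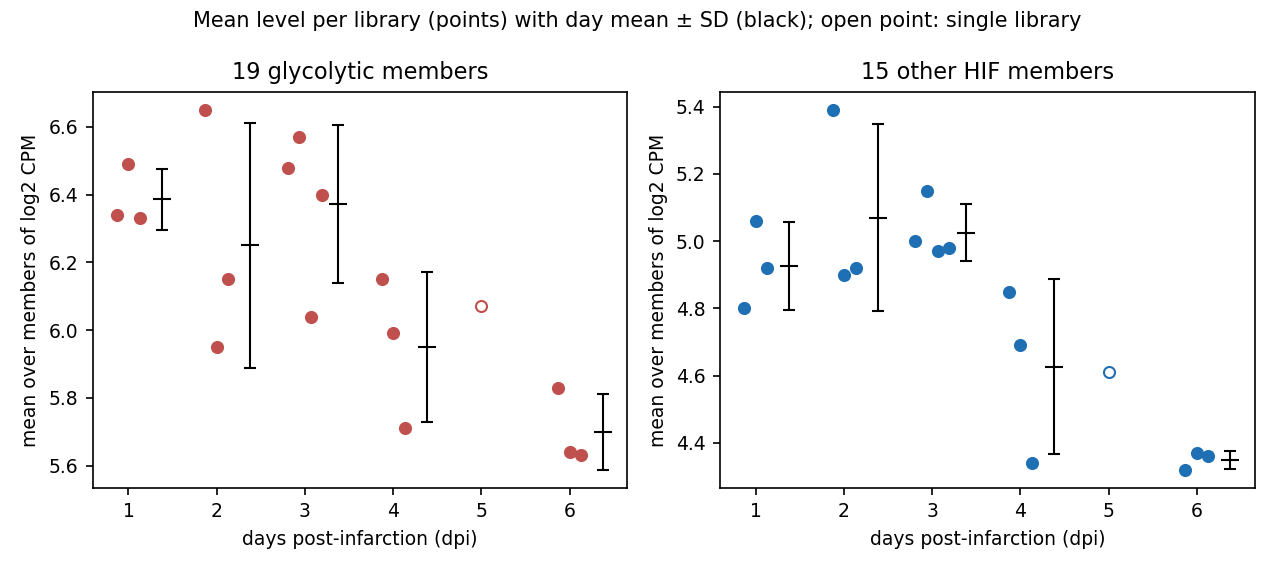
Mean log2 CPM over the 19 glycolytic members (left) and the 15 other HIF members (right) by day, with 1 point per library and the mean ± SD of each day in black; the vertical axes do not start at 0. The 6 dpi libraries lie between 5.63 and 5.83 on the left and between 4.32 and 4.37 on the right, and 2 dpi replicate 1 is the highest library in both panels.

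The day of the highest mean, among the days with replicates, was 1 dpi for 8 of the 19 glycolytic genes and 3 dpi for 7 of them. Among the other 15 members it was 2 dpi for 6, 3 dpi for 5 and 1 dpi for 3. Of all genes tested, 18.1% had their highest mean at 1 dpi, 13.6% at 2 dpi and 24.2% at 3 dpi. The glycolytic shares were 42.1% at 1 dpi and 36.8% at 3 dpi. Those of the other members were 20% at 1 dpi, 40% at 2 dpi and 33.3% at 3 dpi. The 2 dpi means include replicate 1, which had the highest level of its day for 27 of the 34 members. The lowest mean fell on 6 dpi for 10 glycolytic genes and 9 of the others, or 52.6% and 60%, against 28.8% of all genes tested, and on 2 dpi for none of the 34, against 12.3% of all genes. Only *Hk1* had its highest mean at 6 dpi, where 29.6% of all genes had theirs. The transporters and *Hk2*, *Gpi1*, *Pfkl*, *Aldoa* and *Ldha* had their highest mean at 1 dpi, whereas *Tpi1*, *Gapdh*, *Pgk1*, *Pgam1* and *Pkm* had theirs at 3 dpi.

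**Figure D5:**
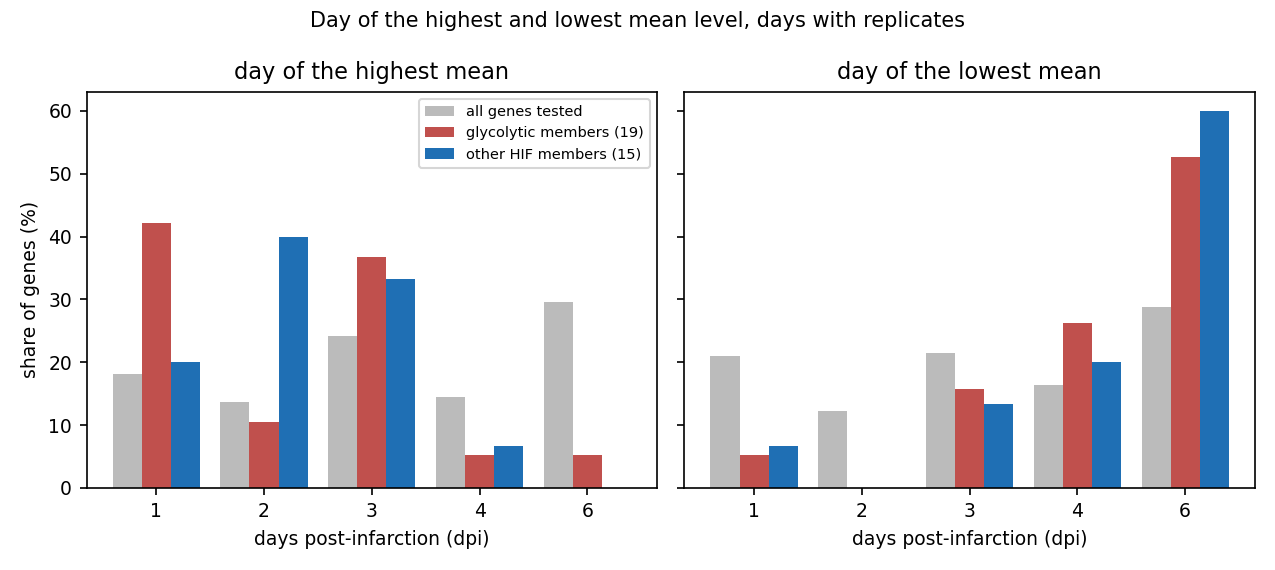
Share of genes, in percent, with their highest (left) and lowest (right) day mean on each of the 5 days with replicates, for all 14030 genes tested (grey), the 19 glycolytic members (red) and the 15 other HIF members (blue). At 6 dpi the lowest means reach 52.6% and 60% of the members against 28.8% of all genes.

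Between neighbouring days few members passed the test. For the counts at an unadjusted p under 0.05 the share of all genes is not given, and the shares below belong to the adjusted p only. From 1 to 2 dpi 0 members were called by edgeR, where 0.157% of all genes were called higher and 0.0214% lower, with 2 members at an unadjusted p under 0.05 and 0 called by DESeq2. From 2 to 3 dpi 0 members were called by edgeR, against 1.82% of all genes higher and 1.12% lower, with 5 members at an unadjusted p under 0.05 and 1 (*Gapdh*) called by DESeq2. DESeq2 called 7.36% of all genes from 2 to 3 dpi. The edgeR count was 1 without 3 dpi replicate 3 and 1 without 4 dpi replicate 3, where 3.08% and 3.53% of all genes were called. From 4 to 6 dpi 0 members were called by edgeR, against 0.235% higher and 0.278% lower, with 10 members at an unadjusted p under 0.05, of which 8 were lower, and 2 (*Hk2* and *Hif1a*) called by DESeq2. DESeq2 called 5.41% of all genes from 4 to 6 dpi. Without 6 dpi replicate 3 edgeR called 5 members, where 10.0% of all genes were called. These were *Pgk1*, *Hk2*, *Bhlhe40* and *Hif1a*, which were lower, and *Hk1*, which was higher. The edgeR count was 2 without 3 dpi replicate 2 and 2 without 4 dpi replicate 3, where 5.37% and 1.59% of all genes were called. From 3 to 4 dpi, where *Vegfa* was called, 26 of 34 log2 fold changes were negative with a median of -0.42, whereas 51.9% of all genes were negative with a median of -0.03. There 8 members, all lower, were at an unadjusted p under 0.05, and DESeq2 called 4 (*Slc2a1*, *Gapdh*, *Egln1* and *Vegfa*). DESeq2 called 6.11% of all genes from 3 to 4 dpi. The edgeR count was 0 without 1 dpi replicate 3, 3 dpi replicate 2 or 4 dpi replicate 1 or 2, and 2 without 3 dpi replicate 3. Of all genes 1.99%, 5.17%, 1.08%, 0.904% and 1.95% were called in these fits, in that order.

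The libraries of 3 to 5 dpi were also set together against those of 1 and 2 dpi, since the study asks when reparative CFs, a scar-forming subpopulation, appear. The log2 fold changes of this comparison weight each day equally, so that the single 5 dpi library counts as much as the 4 libraries of 3 dpi. Here 4 members were lower, against 2.24% of all genes called lower, and no member was higher, against 5.25% of all genes called higher, with 0 members higher at an unadjusted p under 0.05 and 0 higher in DESeq2. In edgeR 1 member was called higher without 1 dpi replicate 2 (*Car9*) and 1 when every gene of at least 1 count was tested (*Gapdh*). *Gpi1*, which converts glucose 6-phosphate to fructose 6-phosphate, was at 178 to 230 CPM in the 6 early libraries and at 114 to 155 CPM in the 8 later ones, without overlap (log2 fold change -0.60, SE 0.17, adjusted p = 0.0345, edgeR). The aldolase gene *Aldoa* was at 632 to 1031 CPM early and 360 to 874 CPM later, where replicate 2 of 3 dpi alone exceeded 576 CPM (-0.74, SE 0.21, adjusted p = 0.0372, edgeR). *Adm* was at 27.9 to 50.3 CPM early and, except for 47.0 CPM in 4 dpi replicate 3, at 15.3 to 25.4 CPM later (-0.96, SE 0.28, adjusted p = 0.0418, edgeR). *Ero1l* was at 15.9 to 35.2 CPM early and 10.6 to 24.2 CPM later (-0.92, SE 0.24, adjusted p = 0.0218, edgeR). *Adm* was back at 46.4 and 51.0 CPM in 2 of the 3 libraries of 6 dpi.

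Of the 16 fits that left out 1 library, the call of *Adm* was lost in 10 (adjusted p of 0.05 to 0.087), that of *Aldoa* in 6 (0.051 to 0.086), that of *Gpi1* in 3 (0.058 to 0.07) and that of *Ero1l* in 1 (edgeR). Without 2 dpi replicate 1 none was made, with log2 fold changes of -0.55 for *Gpi1*, -0.65 for *Aldoa*, -0.96 for *Adm* and -0.73 for *Ero1l* (adjusted p of 0.067 to 0.086). The count of lower members was 1 without 4 dpi replicate 2, 2 without 1 dpi replicate 2, 2 without 1 dpi replicate 3, and 2 without 3 dpi replicate 4. It was 2 without the 5 dpi library, 2 without the 3 dpi libraries and 6 with 3 dpi replicate 2 and 4 dpi replicate 3 left out. Of all genes 314 were called lower with all libraries and 254 without 2 dpi replicate 1. The number was 234, 252, 203, 277, 243, 237 and 788 in the other fits, in the order given. In the libraries where Y-linked counts exceeded *Xist*, which hold no 4 dpi library, *Adm* alone was called, with 226 of all genes called lower. The log2 fold changes not called there were -0.58 for *Gpi1*, -0.70 for *Aldoa* and -0.91 for *Ero1l* (adjusted p of 0.092 to 0.14, edgeR), close to those with all libraries. *Slc2a1* and *Ldha*, called between 1 and 6 dpi, were not called here, although *Slc2a1* was when every gene of at least 1 count was tested, and the difference between those comparisons was not tested.

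Of 37 further genes of glucose metabolism outside the members, 32 were tested, and from 1 to 6 dpi 3 were higher and 1 lower (6.91% and 5.21% of all genes), and their median log2 fold change was 0.12. *Pgam2*, the muscle form of phosphoglycerate mutase, was at a mean of 0.542 CPM at 1 dpi and 13.3 CPM at 6 dpi (log2 fold change 4.45, SE 0.68, adjusted p = 0.000353, edgeR), opposite in sign to *Pgam1* and on the same days as the rise of the cardiomyocyte marker sum given above, whose part was not tested. *Pygb*, a glycogen phosphorylase, rose by 1.32 (SE 0.25, adjusted p = 0.00226, edgeR), and *Pgls* of the pentose phosphate pathway by 1.11 (SE 0.25, adjusted p = 0.00749, edgeR). *Dld*, a subunit of the pyruvate dehydrogenase complex, was lower (-1.27, SE 0.35, adjusted p = 0.0224, edgeR), and its partner *Dlat* was lower at 4 than at 3 dpi (-1.05, SE 0.25, adjusted p = 0.0323, edgeR), where *Pgam2* was higher (2.83, SE 0.60, adjusted p = 0.0146, edgeR). Over the whole course 5 of the 32 were called, against 15.0% of all genes.

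Of 31 further genes of the HIF pathway, all tested, 2 were higher and 3 lower at 6 than at 1 dpi (6.91% and 5.21% of all genes), and their median log2 fold change was -0.28. Among those lower were *Hmox1*, heme oxygenase, at -2.61 (SE 0.28, adjusted p = 8.27e-06, edgeR) and *Angptl4*, an inhibitor of lipoprotein lipase, at -2.17 (SE 0.46, adjusted p = 0.00479, edgeR). *Stc2*, a stanniocalcin, rose by 1.91 (SE 0.35, adjusted p = 0.0016, edgeR) and *Edn1*, endothelin, by 1.74 (SE 0.40, adjusted p = 0.00818, edgeR). *Stc2* was the only one of these genes called from 4 to 6 dpi (1.69, SE 0.35, adjusted p = 0.0412, edgeR). In the window of 3 to 5 against 1 to 2 dpi *Hmox1* and *Ccng2* were lower and *P4ha2*, *Car12* and *Edn1* higher, and over the whole course 6 of the 31 were called, against 15.0% of all genes.

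The reads of 4 members may be shared with other loci. The end of *Pfkp* overlaps *Pitrm1* on the opposite strand, which had 97.5% as many counts, *Eno1* has a copy, *Eno1b*, at 99.4% identity with 88.6% as many counts, *Bnip3* a copy with 14.1% and *Gapdh* a copy, *Gm3839*, with 5.3%. Whether the counting used strand or reads with several positions is not given in the sources used here, so that the levels of these genes are uncertain. Adding the counts of *Eno1b* to *Eno1* changed no count of members called.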

How the data were processed

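Bulk MARS-seq data of 17 libraries were analysed. The authors demultiplexed reads with bcl2fastq (1.2.4), aligned them with STAR to mm10 and counted them with featureCounts on an Ensembl annotation. The deposited values are raw counts per gene, without normalisation, and no collapsing of duplicates is named, so that intervals and floors cover counting error only. Strand and multimapping settings are not given in the sources used here. Samples of up to 8 were pooled for in vitro transcription.

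Genes that reached 10 counts in 3 or more libraries (14030 of 31053, at least 99.93% of the counts of each library) were tested with edgeR 4.0.16 (R 4.3.3), using TMM normalisation, a quasi-likelihood fit with day as a factor over all 17 libraries, and Benjamini-Hochberg adjustment over all genes tested, with a threshold of 0.05. The single 5 dpi library gives no spread of its own. Standard errors were obtained from the F statistic, levels are TMM-normalised CPM, and log2 CPM used a prior count of 2. Copies were sought with the last 500 bases of transcripts at 97% identity or more. Alternatives were DESeq2 1.42.0, other scalings and filters, a replicate block and leaving out libraries. Values of all 34 genes were accounted for, and the named genes were the 34 members and called genes of 2 further pathway lists, of which some results are not reported here. The members and lists were chosen with earlier results of these data known. The study's methods call the samples of a population biological replicates, whereas the labels do not tie each library to a mouse, and p-values measure the spread between these libraries.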

Additional observations from a re-analysis of the deposited data

Results flagged for a closer look

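The level of 3 members in 3 dpi replicate 2 stood apart from the other 3 libraries of that day by Dixon's test, which divides the gap to the nearest library by the whole range of the day. Of 36 measures tested in this way, 1.8 would be flagged by chance. *Aldoa* was at 9.77 log2 CPM in that library and at 9.13 to 9.15 in the others (ratio 0.978), *Gapdh* at 11.87 against 9.39 to 9.80 (ratio 0.834) and *Bhlhe40* at 6.22 against 7.10 to 7.25 (ratio 0.852). *Aldoa* and *Gapdh* were higher there and *Bhlhe40* lower.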

How the results depend on the processing

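No log2 fold change of a member called between days with all libraries changed its direction in any alternative run for it. The same held for the *Gapdh* steps from 2 to 3 and from 3 to 4 dpi. This covers these results only. The reason why a count or value moved was not tested. DESeq2 called 13 members over the whole course, 1 at 3 against 2 dpi, 4 at 4 against 3 dpi and 2 at 6 against 4 dpi. It called 26.8%, 7.36%, 6.11% and 5.41% of all genes there, against 15.0%, 2.94%, 2.71% and 0.513% in edgeR with all libraries. When genes with as little as 1 count were tested, edgeR called 15, 2, 3 and 5 members in these comparisons, and 18.1%, 4.76%, 4.21% and 4.29% of all genes. A filter of 10 counts in each library gave 2 members at 4 against 3 dpi, where 3.58% of all genes were called. A fit restricted to the days compared called 1 at 3 against 2 dpi and 0 at 4 against 3 dpi, where 1.95% and 0.976% of all genes were called. With 3 dpi replicate 2 and 4 dpi replicate 3 both left out, an alternative chosen after seeing the data, the counts were 17 over the course, 1 at 3 against 2 dpi, 2 at 4 against 3 dpi (1 higher), 8 at 6 against 4 dpi (2 higher), 12 at 6 against 1 dpi and 6 for days 3 to 5 against days 1 and 2. The shares of all genes called in that fit were 29.7%, 7.12%, 6.14%, 8.01%, 20.5% and 13.5%, in the same order.

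Leaving out 1 library at a time gave 4 to 13 members over the course, 0 to 1 at 3 against 2 dpi, 0 to 2 at 4 against 3 dpi, 0 to 5 at 6 against 4 dpi, 2 to 11 at 6 against 1 dpi and 0 to 5 for days 3 to 5 against days 1 and 2. Of all genes 9.38% to 24.8%, 0.33% to 5.25%, 0.904% to 5.17%, 0.0215% to 10.0%, 5.46% to 18.5% and 5.6% to 11.5% were called, in the same order. The comparison of days 3 to 5 with days 1 and 2 gave 2 members without the 5 dpi library, 2 without the 3 dpi libraries and 1 where Y-linked counts exceeded *Xist*. The shares of all genes were 6.15%, 5.92% and 6.02%. With CPM of raw library sizes the difference of 6 from 1 dpi was -0.86 for the glycolytic mean and -0.75 for the other HIF members, where the median of all genes was -0.14.

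Same-numbered libraries did not deviate together on average (mean r = 0.011 over 30 pairs across genes, against -0.005 over 72 other pairs). Such a mean over all genes does not settle whether the numbers pair samples. The single 5 dpi library, which was left out of this check, has different numbers in its title and description. With the replicate block 4 members were called over the course, 7 at 6 against 1 dpi and 1 for days 3 to 5 against days 1 and 2. Of all genes 10.6%, 10.8% and 6.31% were called. The calls lost at 6 against 1 dpi were *Hk2* (-1.77, adjusted p = 0.052, edgeR) and *Vegfa* (-1.16, adjusted p = 0.051, edgeR). Over the course *Pgk1*, *Pgam1* and *Vegfa* were lost (adjusted p of 0.055 to 0.086, edgeR). For days 3 to 5 *Gpi1*, *Aldoa* and *Adm* were lost, at -0.99 to -0.54 (adjusted p of 0.069 to 0.099, edgeR). At 4 against 3 dpi *Vegfa* was then not called (-1.29, adjusted p = 0.091) and *Gapdh* was (-1.88, adjusted p = 0.048, edgeR). Genes with few reads, such as *Car9*, limit which differences can be seen.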
